A study of Mus musculus with 13 samples.

Results

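STAG2 and STAG1 are alternative subunits of cohesin, the ring-shaped complex that extrudes chromatin loops and holds sister chromatids together, and each cohesin ring carries one of them. CTCF, a DNA-binding zinc finger protein, is where cohesin often halts. STAG2 is a tumour suppressor that is often inactivated in bladder cancer, and the urothelium, the lining of the bladder, is a slowly renewing tissue whose cells are mostly quiescent. In quiescent cells the DREAM complex, built from MuvB proteins, an E2F and a pocket protein, represses cell cycle genes through E2F and CHR promoter elements.

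STAG2 binding was mapped by ChIP-seq in quiescent and in proliferating NU1 cells, a mouse urothelial line that became immortal spontaneously and is wild type in every group. The 4 STAG2 libraries described here, of 13 samples in the series, were 2 biological replicates of quiescent and 2 of proliferating cells. Quiescent cells had been grown to confluence and then held in medium with 1 uM rosiglitazone, a PPAR gamma agonist, together with 0.5 uM erlotinib, an inhibitor of the EGF receptor kinase. Proliferating cells had neither drug named in their labels, so arrest, confluence and the drugs cannot be told apart. All libraries came from 1 line, and 550 ug of chromatin and 25 ug of antibody went into each precipitation. With 2 libraries against 2 an exact two-sided permutation test over the 6 arrangements cannot give a p under 0.333. No difference between the states could therefore pass 0.05. A p is the share of arrangements with a mean difference at least as large, and covers biological replicates of this line alone. The labels mark urothelial cells, and binding lists do not show which genes were expressed. STAG2 stood at the gene ends of 23 of 30 urothelial differentiation genes in all 4 libraries, and of 3 of 12 fibroblast, 5 of 16 immune and 8 of 13 neuron markers, against 51.8% of all protein-coding genes.

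A site is a set of overlapping peaks over the 4 STAG2 lists. There were 60531 sites. Lost sites were called in both proliferating and in no quiescent library, gained sites in both quiescent and in no proliferating library, and kept sites in all 4. A gene end is the 1 kb on each side of either end of a protein-coding gene. The fold enrichments quoted are those the authors' peak caller gave each peak over background, and describe a peak within its own list.

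The promoters below, 300 bases from 250 before to 50 after an annotated start, carried a lost, a gained or a kept STAG2 site and are shown for 2 reasons. Kif4, Nuf2, Cdca8 and Mcm6 are the listed cell cycle genes that counted as lost or gained at their ends and whose promoters met such a site. The others belong to the highest ranked sites with their mean summit inside a promoter of a named gene in the table. These gave 2 promoters each for lost and gained sites and 1 for kept sites. They are RefSeq sequences of GRCm38.p6, the assembly of mm10, written 5′ to 3′ on the gene's strand. Capitals mark a CHR element (TTTGAA), an E2F element (TTTNNCGC) or a relaxed CTCF core motif, searched on both strands, and a promoter with no capitals holds none of these. Lost sites overlapped the promoters of Kif4, a chromokinesin gene (chrX:100625815-100626114, + strand), Nuf2, a kinetochore gene (chr1:169531415-169531714, - strand), Pot1a, which encodes a telomere-binding protein (chr6:25809169-25809468, - strand), and Cyp11a1, the side chain cleavage enzyme of steroid synthesis (chr9:58014702-58015001, + strand). Gained sites overlapped those of Cdca8, which encodes the chromosome passenger protein borealin (chr4:124936868-124937167, - strand), Mcm6, a subunit of the replicative helicase (chr1:128359656-128359955, - strand), Kbtbd12 (chr6:88627380-88627679, - strand), and Daam2, a formin gene (chr17:49564261-49564560, - strand). A kept site overlapped that of Cdkn2aipnl (chr11:51967381-51967680, + strand). At Cdca8 and Mcm6 the mean summit lay 228 and 193.5 bases after the start, beyond the printed window, and at the other 7 within it.
Kif4 (lost): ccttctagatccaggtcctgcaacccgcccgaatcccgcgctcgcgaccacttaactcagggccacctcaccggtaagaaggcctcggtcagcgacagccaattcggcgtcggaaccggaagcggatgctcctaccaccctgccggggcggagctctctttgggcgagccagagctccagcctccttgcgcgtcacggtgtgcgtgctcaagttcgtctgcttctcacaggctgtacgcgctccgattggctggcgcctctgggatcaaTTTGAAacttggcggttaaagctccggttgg
Nuf2 (lost): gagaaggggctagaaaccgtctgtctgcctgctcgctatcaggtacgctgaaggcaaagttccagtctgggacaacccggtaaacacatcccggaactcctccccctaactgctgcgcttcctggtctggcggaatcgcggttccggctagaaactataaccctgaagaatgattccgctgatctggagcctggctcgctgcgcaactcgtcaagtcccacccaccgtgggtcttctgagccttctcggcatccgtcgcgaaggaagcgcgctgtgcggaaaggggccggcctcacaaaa
Pot1a (lost): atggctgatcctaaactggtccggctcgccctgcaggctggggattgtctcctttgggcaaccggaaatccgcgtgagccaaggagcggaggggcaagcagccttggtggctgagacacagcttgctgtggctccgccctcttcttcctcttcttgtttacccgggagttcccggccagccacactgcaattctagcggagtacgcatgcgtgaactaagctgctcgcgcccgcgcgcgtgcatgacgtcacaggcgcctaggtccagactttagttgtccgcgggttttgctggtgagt
Cyp11a1 (lost): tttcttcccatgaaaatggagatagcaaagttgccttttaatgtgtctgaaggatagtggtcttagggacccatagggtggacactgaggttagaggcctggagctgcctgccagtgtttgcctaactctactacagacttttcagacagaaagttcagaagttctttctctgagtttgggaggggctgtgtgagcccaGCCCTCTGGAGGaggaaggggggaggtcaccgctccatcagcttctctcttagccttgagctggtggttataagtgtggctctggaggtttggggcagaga
Cdca8 (gained): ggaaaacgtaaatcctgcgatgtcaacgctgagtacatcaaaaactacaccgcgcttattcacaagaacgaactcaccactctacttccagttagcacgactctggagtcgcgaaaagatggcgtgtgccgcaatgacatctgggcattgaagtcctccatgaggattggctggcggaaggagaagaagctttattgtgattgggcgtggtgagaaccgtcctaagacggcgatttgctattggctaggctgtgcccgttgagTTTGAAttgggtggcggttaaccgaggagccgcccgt
Mcm6 (gained): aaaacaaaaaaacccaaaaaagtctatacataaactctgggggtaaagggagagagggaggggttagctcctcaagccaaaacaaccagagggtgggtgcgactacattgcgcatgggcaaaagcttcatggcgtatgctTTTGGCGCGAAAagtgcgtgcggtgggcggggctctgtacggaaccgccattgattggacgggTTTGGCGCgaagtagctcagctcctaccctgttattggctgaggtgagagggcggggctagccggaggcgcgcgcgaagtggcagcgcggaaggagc
Kbtbd12 (gained): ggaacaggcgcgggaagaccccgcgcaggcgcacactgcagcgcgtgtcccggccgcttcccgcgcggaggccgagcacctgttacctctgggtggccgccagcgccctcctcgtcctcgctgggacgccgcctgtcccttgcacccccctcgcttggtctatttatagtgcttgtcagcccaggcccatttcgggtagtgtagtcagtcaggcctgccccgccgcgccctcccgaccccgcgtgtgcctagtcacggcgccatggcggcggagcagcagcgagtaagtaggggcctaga
Daam2 (gained): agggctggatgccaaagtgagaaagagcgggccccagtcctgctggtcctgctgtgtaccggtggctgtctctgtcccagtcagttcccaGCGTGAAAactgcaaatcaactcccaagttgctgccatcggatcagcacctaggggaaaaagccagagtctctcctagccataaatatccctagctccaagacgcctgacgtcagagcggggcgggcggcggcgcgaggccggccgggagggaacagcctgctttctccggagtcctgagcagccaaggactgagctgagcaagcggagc
Cdkn2aipnl (kept): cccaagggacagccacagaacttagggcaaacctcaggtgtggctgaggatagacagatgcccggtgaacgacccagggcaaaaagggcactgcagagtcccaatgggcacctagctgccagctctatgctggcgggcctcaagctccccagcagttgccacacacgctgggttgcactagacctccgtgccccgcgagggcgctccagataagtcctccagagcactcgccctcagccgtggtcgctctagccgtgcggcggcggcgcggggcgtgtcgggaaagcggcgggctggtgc

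Quiescent cells had fewer STAG2 peaks, set further apart and more often at gene ends. The lists held 38407 and 34281 peaks in quiescent cells, against 47295 and 45582 in proliferating cells, a mean log2 ratio of -0.36 with no overlap between the states (exact permutation p = 0.333). They covered 26.8 and 23.5 Mb of the genome in quiescent cells, against 31.4 and 30.2 Mb in proliferating cells. The median distance between neighbouring summits was 17308 and 19330 bp in quiescent cells, against 13636 and 13319 bp in proliferating cells (exact permutation p = 0.333). Gaps of over 100 kb made up 13.5% and 14.1% of the distances in quiescent cells and 9.79% and 10.6% in proliferating cells. With peaks of a -log10 q of at least 5 alone the lists held 34805 and 32022 peaks in quiescent cells, against 39400 and 34603 in proliferating cells, and the states overlapped. With all STAG2 lists cut to the length of the shortest by fold, the median spacing differed by 348.5 bp, less than the spread between replicates (exact permutation p = 0.667).

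The higher share of peaks at gene ends in quiescent cells was also seen at equal list lengths. Gene ends held 34.8% and 36.6% of the peaks in quiescent cells, against 28.3% and 30.2% in proliferating cells, a difference of 6.41 percentage points (exact permutation p = 0.333). The 5′ ends of genes whose strand is known took most of it, with 25.0% and 26.7% of the peaks in quiescent cells against 19.99% and 21.3% in proliferating cells. At 3′ ends the shares were 5.02% and 4.77% in quiescent cells, against 4.33% and 4.76% in proliferating cells. Peaks within genes but away from their ends made up 35.1% and 34.1% in quiescent cells and 38.6% in each list of proliferating cells, and peaks outside genes 30.1% and 29.4% in quiescent cells and 33.0% and 31.2% in proliferating cells. With lists cut to the shortest, the difference at gene ends was 4.47 points, and with 20000 peaks in every list 5.98 points, with no overlap between the states in either (exact permutation p = 0.333 each). Counted by the summit alone, which leaves out any effect of peak width, it was 6.11 points.

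The share of genes with STAG2 at an end overlapped between the states. STAG2 was at a gene end of 58.4% and 55.6% of the 21883 protein-coding genes in quiescent cells, against 57.2% and 58.2% in proliferating cells, and the states overlapped (exact permutation p = 1). The mean difference was -0.66 points, and it was 0.733 points without quiescent replicate 2. With lists cut to the shortest the share was higher in quiescent cells by 6.07 points, with no overlap (exact permutation p = 0.333).

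**Figure D1:**
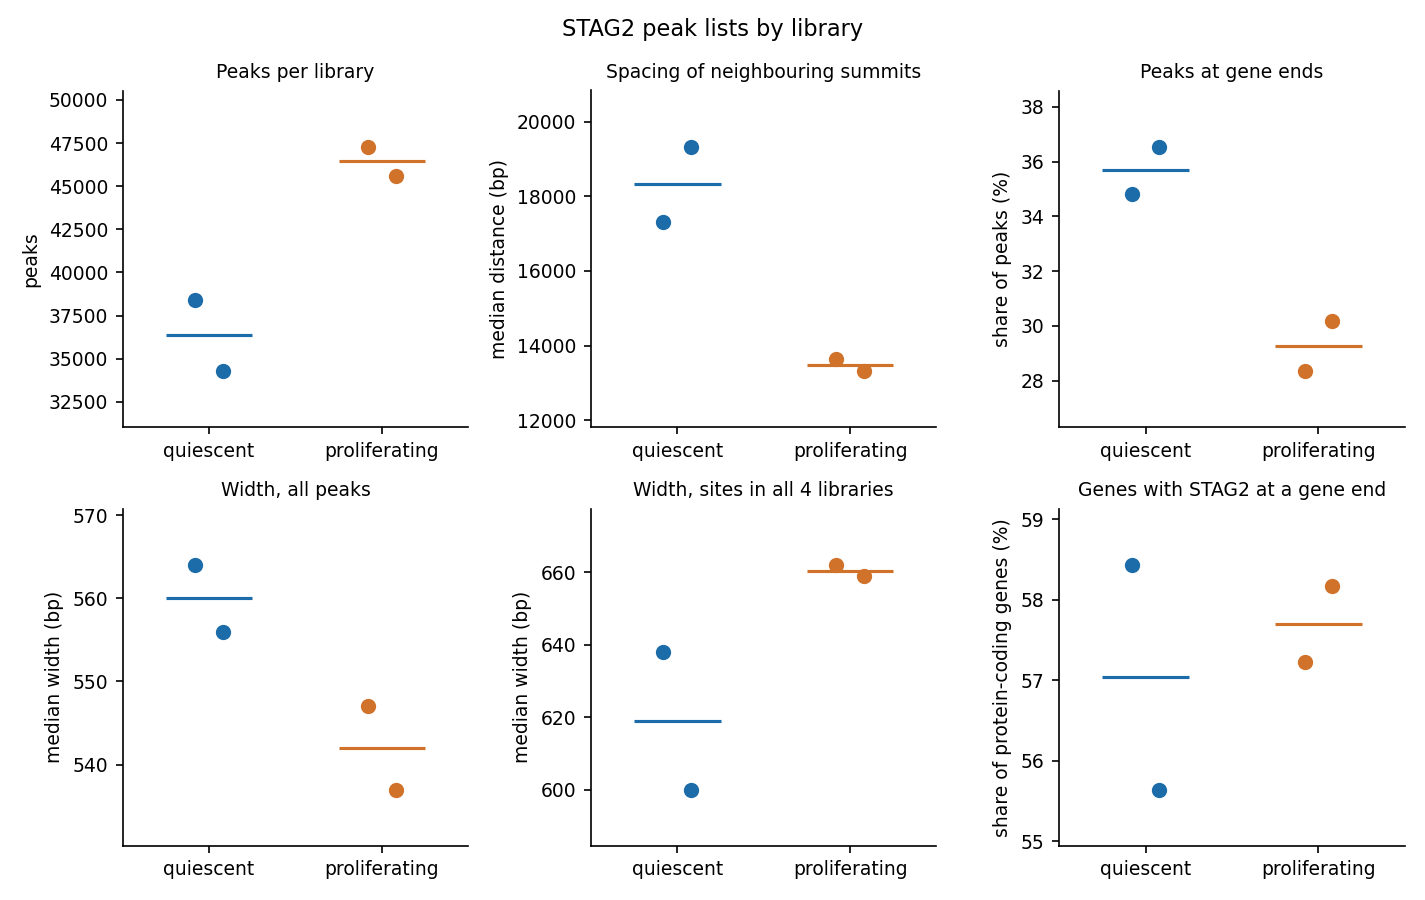
Values of the 4 STAG2 lists, with quiescent libraries on the left and proliferating ones on the right of each panel. Points are libraries and bars are means of 2; axes do not start at 0. Peak number, spacing, gene end share and both widths separate the states, while the share of genes occupied (55.6% to 58.4% in quiescent cells) overlaps.

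Peak width differed in opposite directions over all peaks and over the same sites. Over all peaks the median width was 564 and 556 bp in quiescent cells, against 547 and 537 bp in proliferating cells, a difference of 18 bp (exact permutation p = 0.333). At kept sites it was 638 and 600 bp in quiescent cells, against 662 and 659 bp in proliferating cells, a difference of -41.5 bp (exact permutation p = 0.333). Among 24721 kept sites with a single peak in each library, 31.9% were narrower in both quiescent than in both proliferating libraries and 9.07% were wider. With lists cut to the shortest, the difference over all peaks was -27.5 bp as well, the opposite direction to that in the whole lists. Peaks of the caller's smallest width, 330 bp, made up 5.87% and 4.81% of the lists in quiescent cells and 6.81% and 9.15% in proliferating cells. Summits lay as close across the states as between replicates. The median distance between summits of a kept site was 30 bp between the quiescent and 32 bp between the proliferating replicates, and from 31 to 33 bp across the states.

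STAG2 was called in all 4 libraries at 27091 sites, 44.8% of all. Of the 34663 sites of both proliferating libraries 3567 were lost, 10.3%. Of the 29465 sites of both quiescent libraries 579 were gained, 1.97%. Sites of a single library were common, with 3079 and 1082 in the quiescent and 8281 and 7498 in the proliferating libraries. The excess of lost over gained sites was not found at equal list lengths. With every STAG2 list cut to the shortest, 1551 sites were lost and 1604 gained, and with 20000 peaks in every list 881 were lost and 951 gained. With a -log10 q of at least 5, where the lists still differ in length, 2106 were lost and 810 gained. The definitions also loosen when a library is left out. Lost sites numbered 6120 without quiescent replicate 1, 5054 without quiescent replicate 2, 11269 without proliferating replicate 1 and 11997 without proliferating replicate 2. Gained sites numbered 1721 and 3686 without quiescent replicates 1 and 2, and 1737 and 1250 without proliferating replicates 1 and 2.

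The positions of the classes kept their order against each other for lost sites, which lay at gene ends least often at every list length. Lost sites lay at gene ends in 9.20% of cases, gained sites in 32.5% and kept sites in 40.9%. With lists cut to the shortest these shares were 6.45% of the lost, 47.2% of the gained and 39.5% of the kept sites, and with 20000 peaks per list 12.5%, 61.0% and 39.6%. Of the 1604 sites gained at equal lengths, 61.2% had a peak in the whole list of proliferating replicate 1 and 55.2% in that of replicate 2, so many were sites that lists of both states held at different ranks. Of the 1551 lost ones 12.2% had a peak in the whole list of quiescent replicate 1. None had one in that of replicate 2, which is the shortest and was not cut. With 20000 peaks per list, most sites of both classes had a peak in the whole lists of the other state. Of the 881 lost ones 83.3% and 77.1% had a peak in those of quiescent replicates 1 and 2. Of the 951 gained ones 96.4% and 93.9% had one in those of proliferating replicates 1 and 2.

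**Figure D2:**
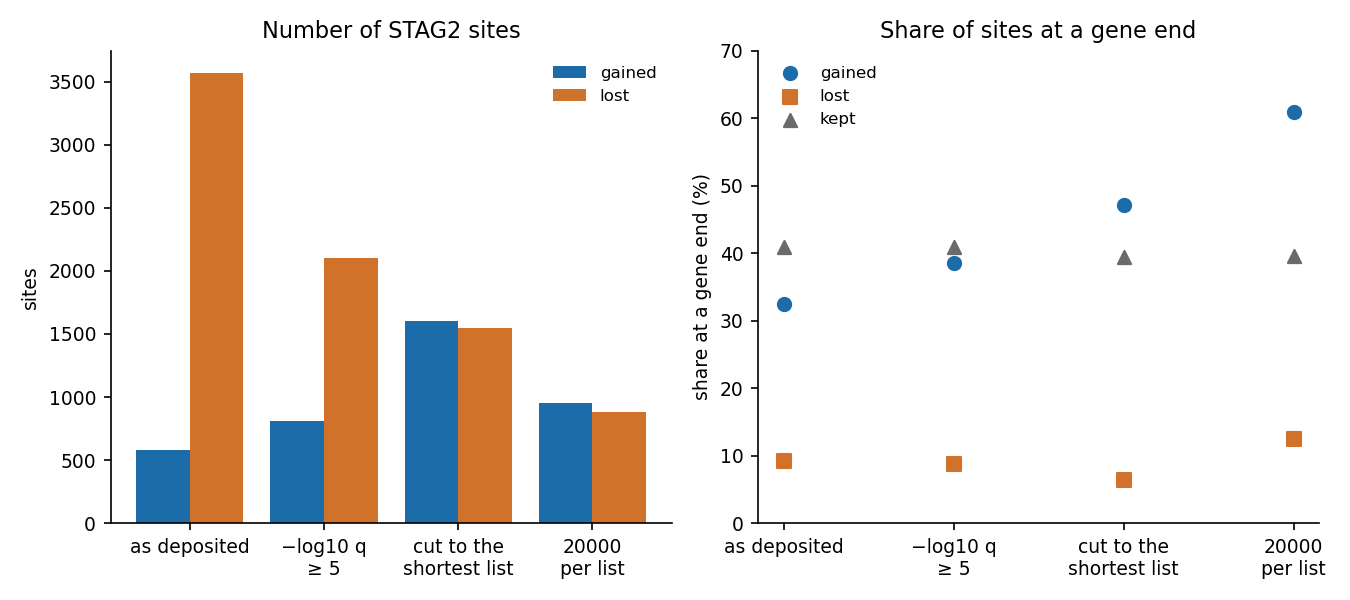
Number of gained and lost STAG2 sites (left) and share of gained, lost and kept sites at a gene end (right) under 4 ways to cut the lists. The 3567 lost sites exceed the 579 gained ones in the lists as deposited but not at equal lengths (1551 and 1604), while lost sites stay at gene ends least often in all 4.

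Lost sites were weak ones in the same lists that define them. Their median fold enrichment was 5.75 and 5.29 in the proliferating libraries, against 12.6 and 10.3 for kept sites in the same libraries, and no lost site exceeded 25.7 and 17.5, while kept sites reached 91.8 and 82.0. Sites of both proliferating libraries were split into 10 bins of equal size by their mean rank of fold. In the weakest bin 36.0% were called in neither quiescent library, in the fifth 5.89%, in the eighth 0.115%, and in the 2 strongest none of 3466 and none of 3467. Gained sites were weak too, with a median fold of 5.99 in each quiescent library, against 13.3 and 11.7 for kept sites there. Of the weakest bin of the sites of both quiescent libraries 10.6% were called in neither proliferating library, and of the 2 strongest none.

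**Figure D3:**
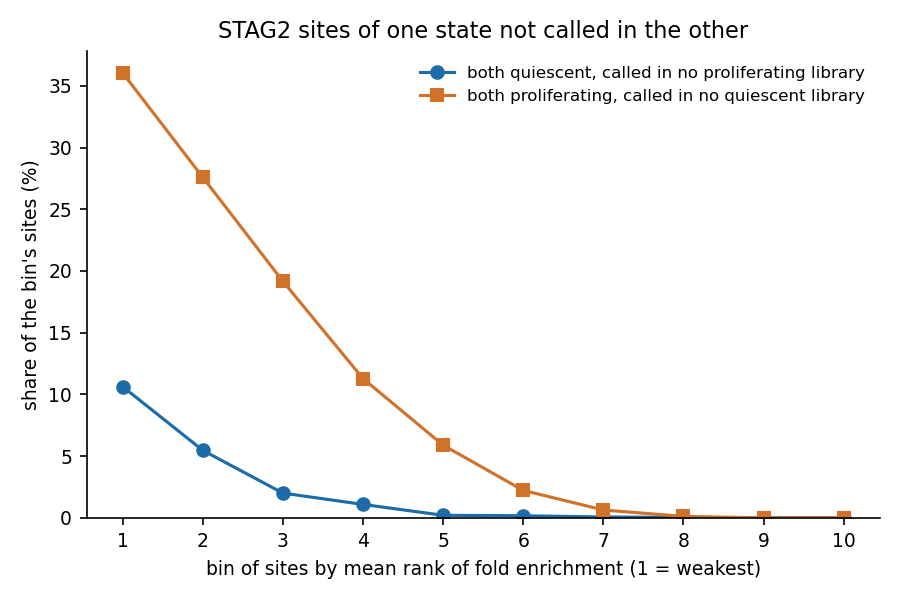
Share of the STAG2 sites of both quiescent (circles) and of both proliferating (squares) libraries that was called in no library of the other state, in 10 bins of mean fold rank from weakest to strongest. The share is 10.6% for quiescent and 36.0% for proliferating sites in the weakest bin and 0 in the 2 strongest.

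Among sites of like strength, lost ones still lay away from gene ends. In the weakest bin of the sites of both proliferating libraries 12.3% of 1249 lost sites lay at a gene end, against 55.7% of 1363 kept sites. In the third bin it was 6.93% of 664 lost sites, against 47.8% of 1950 kept sites. Over the 7 bins with at least 20 lost sites, weighted by the lost sites, the shares were 9.18% of lost and 50.5% of kept sites, and the lost share was the lower in all 7. For 5′ ends these shares were 4.60% of lost and 38.6% of kept sites. Gained sites differed much less from kept sites of like strength, with 32.4% at gene ends against 35.7%, and with the lower share in 3 of 4 bins. By the summit alone the shares at gene ends were 7.51% of lost, 28.7% of gained and 37.2% of kept sites.

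**Figure D4:**
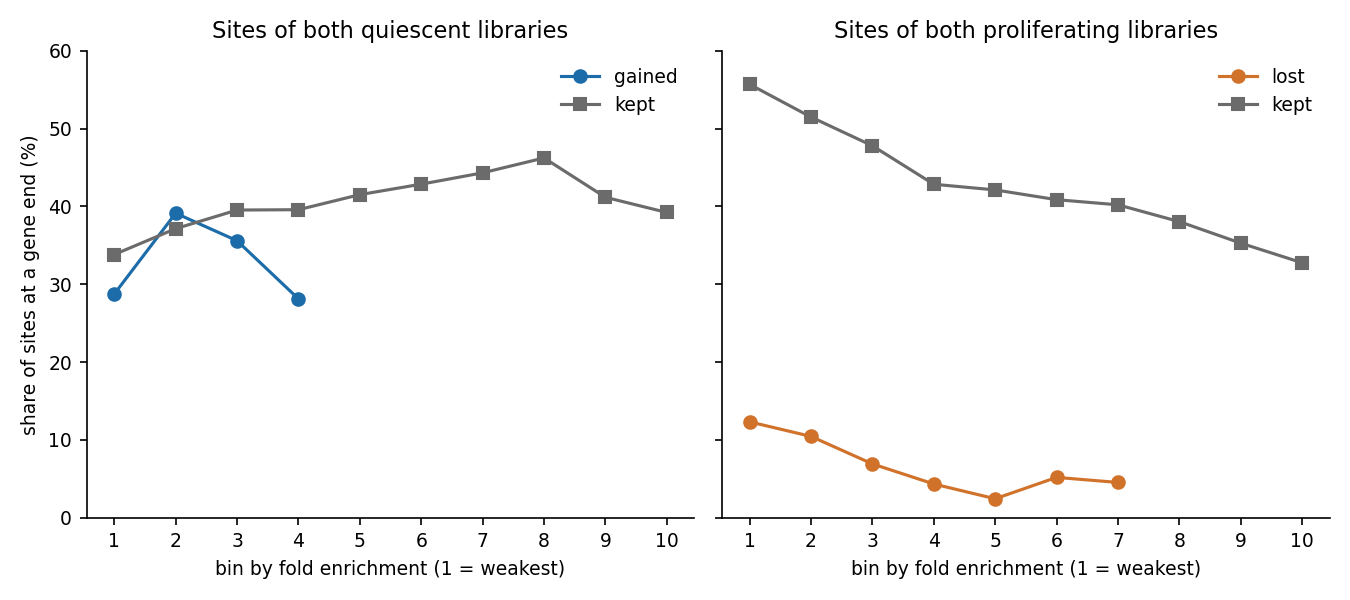
Share of STAG2 sites at a gene end by bin of fold rank, for sites of both quiescent libraries (left, gained and kept) and of both proliferating libraries (right, lost and kept). Lost sites stay between 2.45% and 12.3% in the 7 bins that hold at least 20 of them, while kept sites of the same bins lie between 40.2% and 55.7%. Gained sites lie between 28.1% and 39.1% in the 4 bins that hold at least 20 of them.

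The lost sites lay mostly within genes and between genes. Of the lost sites 48.6% were within a gene and 42.2% outside genes, against 36.3% and 31.3% of the gained and 31.4% and 27.7% of the kept sites. The median distance from a lost site's summit to the nearest annotated start was 29.9 kb, against 15.7 kb for gained and 10.7 kb for kept sites. The median distance to the nearest kept site was 11.2 kb from lost sites, and 12.6 kb from one kept site to the next. A peak of a quiescent library lay within 1 kb of 15.2% of lost sites and within 5 kb of 42.0%. In windows of 1 Mb with no protein-coding gene 15.4% of the sites of both proliferating libraries were lost, and the share was 12.4% with 1 to 4 genes, 11.1% with 5 to 9, 10.5% with 10 to 19 and 8.45% with 20 or more.

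STAG1 libraries, which had no part in choosing the sites, showed a difference at lost STAG2 sites in the same direction. STAG1 peaks covered 22.0% and 26.2% of lost STAG2 sites in quiescent cells, against 42.2% and 53.8% in proliferating cells, a difference of -23.9 points with no overlap (exact permutation p = 0.333). It stayed between -29.7 and -18.1 points without any 1 STAG1 library. It was -13.4 and -15.6 points without proliferating STAG2 replicates 1 and 2, each over the larger set of lost sites that this leaves. With 20000 peaks per list, where the STAG1 lists were cut to that length as well, it was -10.2 points. Of the 881 lost sites of that setting 83.3% and 77.1% had a peak in the whole lists of quiescent STAG2 replicates 1 and 2. At kept STAG2 sites STAG1 covered 88.6% and 89.96% in quiescent cells, against 90.1% and 97.4% in proliferating cells, a difference of -4.48 points. At gained STAG2 sites it covered 35.1% and 36.1% in quiescent cells, against 16.6% and 51.5% in proliferating cells, and the states overlapped. The STAG1 lists themselves held 35594 and 36680 peaks in quiescent cells, against 38857 and 50468 in proliferating cells. The part of their lengths in the difference at the lost sites of the whole lists was not tested.

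CTCF did not separate the states at lost STAG2 sites. CTCF peaks covered 30.4% and 38.3% of lost STAG2 sites in quiescent cells, against 38.7% and 35.3% in proliferating cells, a difference of -2.65 points (exact permutation p = 0.667) that was 1.28 points without CTCF quiescent replicate 1. At gained sites the shares were 31.3% and 32.0% in quiescent cells, against 34.2% and 43.5% in proliferating cells, a difference of -7.25 points (exact permutation p = 0.333). At kept sites they were 79.9% and 83.9% in quiescent cells, against 86.1% and 84.3% in proliferating cells. Among sites of like strength no CTCF library was called at 52.4% of lost sites, against 18.5% of kept ones, and at 44.6% of gained sites, against 26.2% of kept ones. No STAG1 library was called at 29.5% of lost and 30.1% of gained sites, against 3.05% and 3.42% of kept sites of like strength. Peaks of these kept sites were wider, with a weighted mean of the bins' median widths of 582 bp against 420 bp for lost sites. For gained sites it was 421 bp, against 488 bp for kept ones. The part of width in the CTCF and STAG1 shares was not tested. Lost sites without CTCF were common in every position, with 45.4% at gene ends, 49.6% within genes and 57.0% outside them.

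**Figure D5:**
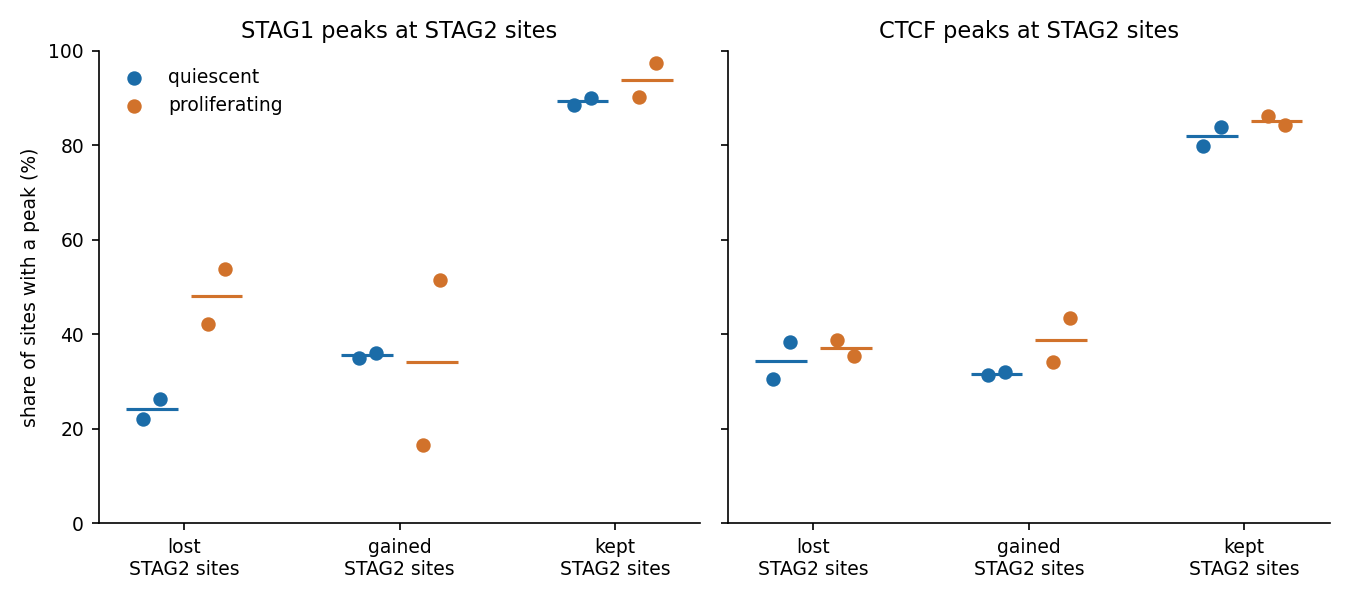
Share of lost, gained and kept STAG2 sites that carry a STAG1 (left) or CTCF (right) peak, by library, with quiescent libraries on the left and proliferating ones on the right of each pair. Points are libraries and bars are means of 2. STAG1 covers 22.0% and 26.2% of lost sites in quiescent cells, against 42.2% and 53.8% in proliferating cells, and CTCF overlaps between the states there.

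Some genes and regions held several lost sites. Agap1, which encodes an Arf GTPase-activating protein, had the most, with 10 lost, 1 gained and 9 kept sites on chromosome 1 from 89454811 to 89895282. Its body held 17 peaks in each quiescent library, against 34 and 37 in the proliferating ones. Ralgps1, a Ral exchange factor gene, lost 6 sites and kept 11. It had 14 and 15 peaks in quiescent cells against 23 and 21 in proliferating cells. Lgr6, a receptor for R-spondins and a marker of epithelial stem cells, lost 5 and kept 2, with 2 and 3 peaks in quiescent cells against 11 and 10 in proliferating cells. Hpcal1, a calcium sensor gene, lost 5 and kept 2 as well, with 6 and 2 peaks in quiescent cells against 11 and 12 in proliferating cells. Septin9, Ctif, Celf4, Shank2 and Lpp also lost 5 each, and kept 22, 13, 14, 17 and 3. The 9 genes with at least 5 lost sites had a median length of 266 kb, against 17.2 kb for all protein-coding genes. Of all protein-coding genes 1640 held a lost and 405 a gained site.

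Over windows of 1 Mb with at least 10 sites of both proliferating libraries, 1124 in all, the median share of lost sites was 9.68%. It was highest on chromosome 16 from 24000001 to 25000000, the window of Lpp, a gene of the zyxin family of adhesion proteins. There 7 of 12 sites were lost, and the window held 8 and 7 peaks in quiescent cells against 23 and 15 in proliferating cells. On chromosome 11 from 112000001 to 113000000, where Sox9, a transcription factor of progenitor cells, is the single protein-coding gene, 5 of 12 were lost, with 9 and 10 peaks in quiescent cells against 19 and 18 in proliferating cells. The next 3 windows were that of Myh11 and Snai2 on chromosome 16 with 5 of 12 lost, that of Utrn and Stx11 on chromosome 10 with 4 of 10, and a zinc finger cluster on chromosome 2 with 4 of 10. A window on chromosome 6 from 140000001 to 141000000, which holds Plekha5 and Aebp2, tied with the last 2 at 4 of 10. None of these 6 windows held a gained site. There were 579 gained sites and 2174 windows with sites of both proliferating libraries, so most windows held none. Gained sites were scattered. No gene held more than 2, and Barhl2, a homeobox gene, and Twsg1, which encodes a BMP-binding protein, were among those with 2. Barhl2 had 3 and 2 peaks in quiescent cells against 0 and 1 in proliferating cells. Twsg1 had 4 and 5 peaks in quiescent cells against 2 and 3 in proliferating cells. The others named by the ranking were Cbln2, Onecut2 and Kcng2.

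The strongest lost site at a gene end had a mean percentile of fold of 78.5 in the proliferating lists, and the 10th strongest one of 54.2. The highest lay where Tex9 and Mns1, genes of the male germ line, meet, on chromosome 9 from 72458164 to 72458712, with fold 24.0 and 9.98 in proliferating cells and no peak in quiescent cells. Both CTCF libraries of each state were called there. The site at Zbtb8os, on chromosome 4, had fold 16.5 and 8.98, with STAG1 and CTCF called in all 4 libraries each. At Gmnn, the gene of the licensing inhibitor geminin, STAG1 was called in both proliferating and in no quiescent library at the lost site, and CTCF in none. Gmnn still had STAG2 at an end in all 4 libraries, with fold 6.33 and 7.00 in quiescent cells. The Pts site, at the gene of a tetrahydropterin synthesis enzyme, had fold 9.91 and 10.1 with neither STAG1 nor CTCF in any library. The others of the 10 highest were at Hormad2, a gene of the meiotic chromosome axis, Tmem161a, Vps18, of the endosomal tethering complexes, Gdf3, a TGF beta family ligand, Pfpl, and Erap1, an antigen-trimming peptidase of the endoplasmic reticulum. Of the 10, CTCF was called in both libraries of each state at 5, at Mns1, Zbtb8os, Vps18, Gdf3 and Erap1. Over all lost sites this share was 24.6%, and over kept sites 74.1%.

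The strongest gained site at a gene end was at C2cd4b on chromosome 9 from 67759336 to 67760908, with fold 21.1 and 12.8 in quiescent cells and no peak in proliferating cells. Mmp16, which encodes a membrane-bound matrix metalloproteinase, had 2 gained sites within 2 kb on chromosome 4, with fold 12.5 and 9.48 at the first and 8.48 and 11.5 at the second. Nell1, a secreted glycoprotein gene, had fold 11.5 and 11.0. The others were at Kbtbd12, Nhs, Lin7a, a cell polarity scaffold gene, Daam2, Slc7a10, an amino acid transporter gene, and Olfm2. The Daam2 site, 33 bases after the start whose sequence is shown above, had fold 9.05 in each quiescent library and neither STAG1 nor CTCF in any library. The highest kept sites carried peaks in every STAG1 and CTCF library. They lay at Kiss1r, Cdkn2aipnl, Ankrd6, Col6a2, Pthlh, Piezo1, Hoxa9, Irak2, Cnnm4 and Ccdc124. Cdkn2aipnl, for example, had fold 106 and 72.2 in quiescent cells and 88.0 and 68.7 in proliferating cells.

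Few genes changed at their ends. STAG2 was at an end in all 4 libraries for 11326 of 21883 protein-coding genes, 51.8%. An end was occupied in both proliferating and in no quiescent library for 184 genes, 0.841%, and in both quiescent and in no proliferating library for 132 genes, 0.603%. At 17 of the 184 the same site was called in quiescence beyond the window, and at 16 the replicates had different sites, which leaves 151 with a lost site. At 120 of the 132 the site itself was gained. Genes that share an end were counted separately in these numbers. Pcdhga1, Pcdhga3 and other clustered protocadherin genes, for example, all counted as lost with the same folds of 3.67 and 5.67.

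Most genes of the cell cycle lists had STAG2 at an end in all 4 libraries, against 51.8% of all protein-coding genes. Of 49 G2/M genes that DREAM represses, 33 had STAG2 at an end in all 4 libraries, among them Kif22 and Kif23, which encode mitotic kinesins, Cdc25b, a mitotic phosphatase gene, and Ccna2, cyclin A2. Kif4 and Nuf2, 2 of the 49, were lost and Cdca8, 1 of the 49, was gained, against 0.841% and 0.603% of all genes. Kif4 had fold 6.49 and 5.99 in proliferating cells, and its mean summit stood at -184.5 bases from the start. Nuf2 had 5.34 and 5.34. Cdca8 had fold 7.98 and 5.49 in quiescent cells. These values lie near or below the median fold of their lists, 9.48 and 9.81 in quiescent and 7.98 and 6.99 in proliferating cells. Of 60 G1/S genes 51 were occupied in all 4 libraries, led by Chaf1b and Asf1b, which encode histone chaperones, Tk1, thymidine kinase, and Cdc25a. Mcm6 was gained, with fold 11.0 and 4.75 in quiescent cells, at percentiles of 56.9 and 5.44 in their lists. STAG1 was called at this site in 1 quiescent and 2 proliferating libraries. Cdc6, a licensing factor gene, counted as lost, but its main peak, with fold 34.5 and 22.8 in quiescent cells against 37.1 and 23.3 in proliferating cells, had its near edge 1130 and 1187 bp from the gene's end in quiescent cells against 806 and 1156 bp in proliferating cells. The call of proliferating replicate 1 turned on this edge at the limit of 1 kb, and that of proliferating replicate 2 on a separate weak peak at the gene's other end, with fold 3.17. Among 13 DREAM and MuvB subunit genes 12 had STAG2 at an end in all 4 libraries, with E2f5, E2f4, Tfdp2 and Lin9 highest.

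The lists of the urothelium and of the pathways the drugs act on ranged widely around the 51.8% of all genes occupied in all 4 libraries. Of 30 urothelial differentiation genes 23 were, with Cdh1, E-cadherin, Upk3b, a uroplakin, Krt8, a luminal keratin, and Klf5 highest. Gata3, a luminal transcription factor gene, counted as lost, but its peak beyond the gene's end was at fold 32.3 and 33.4 in quiescent cells, against 42.4 and 25.9 in proliferating cells, with its edge 1028 and 1093 bp away in quiescent cells and 1000 and 983 bp in proliferating cells. All 33 genes of the EGF receptor and MAPK response were occupied in all 4 libraries, with Etv5, an ETS factor gene, Spry1, Dusp1 and Dusp5, feedback inhibitors, highest. Of the CDK inhibitors and growth arrest genes 22 of 23 were, with Gadd45b, Gadd45g, Cdkn2b and Ccng2 highest, and of epithelial adhesion and matrix genes 22 of 24, with Ccn1, Cav1, Ccn2 and Col4a1. Cohesin and its regulators stood at 11 of 16, with Stag2 itself, Pds5a, Pds5b and Smc3 highest. PPAR gamma targets stood at 8 of 21, with Ucp2, Acsl1 and Cpt1a among the highest, below the 51.8% of all genes. Of 18 basal urothelium genes 9 were occupied in all 4 libraries, with 13 and 9 in the single quiescent lists, against 11 and 12 in the proliferating ones, and Itga6, Egfr, Cdh3 and Itgb4 were highest. None of the last 6 lists had a lost or gained gene.

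Some kept sites differed in rank between the states. Each library's kept sites were ranked by fold over the same 27091 sites, in percentiles, and a gap of at least 25 points between all quiescent and all proliferating ranks was singled out, a limit set after the values were seen. The median difference between replicates was 8.38 points in quiescent and 8.40 points in proliferating cells, and from 8.47 to 11.4 points across the states. There were 236 sites with higher ranks in quiescent cells, 0.871% of kept sites, and 283 with lower ones, 1.04%. Of the sites that ranked higher in quiescent cells 68.2% lay at gene ends, and of those that ranked lower 12.0%, against 40.9% of all kept sites. The largest gap at an end of a named gene on the lower side was at Krt5, which encodes the keratin of basal urothelial cells, on chromosome 15 from 101713577 to 101715511. Its percentile was 17.1 and 23.5 in quiescent cells, against 75.9 and 83.9 in proliferating cells, and its fold was 7.33 and 7.76 in quiescent cells, against 21.3 and 21.1 in proliferating cells. Krt17, another basal keratin gene, was also among the 8 largest, with percentiles of 15.0 and 21.1 in quiescent cells against 61.0 and 53.9 in proliferating cells. Krt17 also counted as lost at its ends, with the same site called in quiescence beyond the window. The highest basal urothelium genes were picked for their mean percentile over all 4 libraries. A fall as deep as that of Krt5 could therefore not be seen among them. In the whole lists, not among kept sites alone, Itga6 had percentiles of 95.8 and 97.6 in quiescent cells, against 92.5 and 92.2 in proliferating cells. Egfr, Cdh3 and Itgb4 overlapped between the states. Hk2, hexokinase 2, had 27.2 and 37.3 in quiescent cells against 73.2 and 71.5 in proliferating cells, and Dcdc2b, Sult2b1, Acp7, Hes3 and Adgrg1 completed them. On the higher side Cdyl2, a chromodomain gene, led with percentiles of 62.4 and 70.8 in quiescent cells against 7.86 and 6.09 in proliferating cells. Wnk2, a kinase gene, Phc1, a Polycomb subunit gene, Zc3h6, Trnp1, Ptprz1, Stc2, and Eya4 followed.

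Promoters with the different classes of site differed in their letters. Each promoter was counted in 1 class, as kept if it met a kept site, otherwise as lost before gained. Of the 21262 promoters of 300 bases in the table, 125 met a lost site, 116 a gained and 10405 a kept one, and 8972 met none. The strict CTCF core motif of 12 positions, contained in the relaxed one, which frees 1 of its letters, was in 1.60% of promoters with a lost, 0.862% with a gained and 3.26% with a kept site, against 2.34% of all. The relaxed core, added after the strict one was seen to be rare, was in 8% of promoters with a lost, 12.1% with a gained and 14.9% with a kept site, against 9.88% of all. The CHR element was in 21.6% of promoters with a lost, 11.2% with a gained and 9.69% with a kept site, against 16.0% of all. The E2F element was in 8.80% with a lost, 11.2% with a gained and 9.07% with a kept site, against 6.24% of all. The median GC content was 55.7% with a lost, 63.3% with a gained and 63.7% with a kept site, against 56.3% of all, and its part in these shares was not tested. The promoters that met no STAG2 site held the CHR element in 24.0%, above those with a lost site, the E2F element in 2.69%, the relaxed CTCF core in 4.11% and the strict one in 1.28%, at a median GC content of 47.3%.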

How the data were processed

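ChIP-seq with STAG2, STAG1 and CTCF antibodies was analysed from 12 peak lists, 1 per library, so replicates were not pooled. The deposited lists, in narrowPeak layout, give for each peak a fold enrichment (a ratio over background), -log10 p-values and q-values, a score and another column, the summit's offset. They hold no read totals, so depth is unknown. A further sample, titled input, was not analysed here, and whether input or IgG was the background was not settled. MACS2, BWA, Picard, HOMER and bcl2fastq with mm10 are named, per the submitters' processing notes, and versions are not given in the sources used here.

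Each list's own folds and q-values served to describe, rank or filter its peaks. Peaks sharing at least 1 bp over the STAG2 lists were merged into sites. Genes and promoters came from RefSeq tables of GRCm38.p6, which give a strand for 17491 of 21883 protein-coding genes. Differences were tested by exact two-sided permutation over libraries (Python 3.11.15, numpy 2.4.6, pandas 2.3.3). Alternatives were a -log10 q of at least 5, 20000 peaks per list, lists cut to the shortest, an overlap over 50% of the shorter peak, windows of 2 kb, autosomes, a replicate block and each library left out. Matching was tested on simulated lists. The sites, gene lists and rules were chosen with earlier results of these data known. The text names the 10 strongest sites per class at ends of named genes, 8 genes with the most lost sites (with 1 tie) and 5 with the most gained, the 5 windows of 1 Mb with the highest lost share (with 1 tie), list genes that changed and up to 4 highest members per list. The rule for sequences, up to 3 per class, was widened to list genes that changed and narrowed to 9 promoters on seeing them.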

Additional observations from a re-analysis of the deposited data

How the results depend on the processing

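The gene end share of the lists (4.30 to 7.34 points), their share outside genes, the spacing and the STAG1 difference at lost sites kept their direction under every alternative run. The width over all peaks reversed to -15 bp with a -log10 q of at least 5, to -11.8 bp with 20000 peaks per list and to -27.5 bp with lists cut to the shortest. The share of genes occupied reversed to 1.85, 5.72 and 6.07 points under the same 3 and lay between -2.05 and 0.733 points with 1 library left out. The CTCF difference at lost sites reversed to 1.19 points with 20000 peaks per list and lay between -6.57 and 1.28 points with 1 library left out. Lost sites numbered 2106 with the stricter q, 881 with 20000 peaks and 1551 with equal lengths, and 5054 to 11997 with 1 library left out. Gained sites numbered 951 and 1604 with 20000 peaks and equal lengths, and 1250 to 3686 with 1 library left out. The share of lost sites at gene ends was 12.5% with 20000 peaks, 6.45% with equal lengths, 13.6% with windows of 2 kb, and 8.29% to 12.4% with 1 library left out. Beyond looser definitions and fewer peaks the cause was not tested.

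Same-numbered libraries gave a replicate block, where 2 pairs allow no exact p under 0.5. Its mean differences (-0.36 on the log2 scale for the number of peaks, 6.41 points for gene ends) equal the main ones by arithmetic. Their direction could therefore not change. Lost or gained in both pairs is the definition already used, so the counts of 3567 and 579 could not change either. Single pairs gave 13997 and 14563 lost and 5279 and 3477 gained sites. Deviations of same-numbered libraries had r = -0.05 for fold ranks over kept sites but 0.83 for the share of peaks per chromosome. With 2 pairs and no label that says what a number shares, the numbers were not taken as pairs, and a shared source was not settled. A number of peaks under lists of set length has no value. With no read totals, a weak site that misses a list cannot be told from one not bound. The summit in place of the peak and each STAG1 or CTCF library left out were chosen after seeing the data.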

Other observations

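The share of STAG2 peaks per chromosome followed the replicate number more than the state. On 13 of 21 chromosomes both libraries of one number lay above both of the other, with number 1 higher on chromosomes 3, 4, 6, 10 and 11 and number 2 higher on chromosomes 1, 2, 5, 8, 9, 14, 17 and 18. Quiescent libraries lay above both proliferating ones on chromosomes 15, 19 and Y, and the other 5 overlapped. On chromosome 4, for example, the shares were 5.66% and 5.13% in quiescent cells, against 5.61% and 4.98% in proliferating cells. As a description over 21 chromosomes of the same libraries, the difference of replicate 1 less replicate 2 in quiescent cells correlated with that in proliferating cells with r = 0.83 for STAG2, 0.69 for STAG1 and 0.54 for CTCF. The labels do not say what a number stands for beyond a biological replicate.

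Sites called in 3 libraries, left out of the classes above, differed by the library that lacked them. The 1475 sites missing from quiescent replicate 1 alone lay at gene ends in 11.1% and the 2530 missing from quiescent replicate 2 alone in 16.2%. The 653 sites missing from proliferating replicate 1 alone lay there in 43.2% and the 1142 missing from proliferating replicate 2 alone in 19.8%.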
